A study of Mus musculus with 8 samples.

Results

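The genes described here are those of the constitutive proteasome, the protease that degrades ubiquitin-tagged proteins in every cell, together with its activators, its assembly chaperones and its inhibitor. Members were taken by name: every non-control probe on the array whose gene symbol begins with Psm, followed by a letter from a to g and a digit, was included, except those of the inducible subunits Psmb8, Psmb9 and Psmb10. The rule gave 58 of the 39429 probes, and these named 46 genes. Of these, 44 could be tested among 16159 genes in all. Every tested member was well above background on all 8 arrays. The other two are tissue-restricted forms of 20S subunits: Psmb11, found in the thymus, was well above background on 0 arrays, and Psma8, found in the testis, on 2, so neither is described further. One tested member, Psmc3ip, matches the rule by its symbol only: its protein works in meiotic recombination and is not part of the proteasome.

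Both lines compared were derivatives of C10, itself a derivative of the mouse pre-B line HAFTL, and in both the transcription factor C/EBPα could be switched on. One line carried a control short hairpin RNA (shRNA) and the other is labelled Tet2 knockdown. Each was assayed before induction (0 h) and after 24 h in medium with estradiol (100 nM) plus the cytokines IL-3 and M-CSF (each at 10 ng/ml), which turns the cells towards a macrophage-like state, so no change over induction can be assigned to C/EBPα alone. The 4 groups are therefore control shRNA at 0 h, control shRNA at 24 h, and the line labelled Tet2 knockdown at 0 h and at 24 h. Each group held 2 arrays, which the study's design text calls technical duplicates, so a p-value here reflects how far duplicate arrays differ and says nothing of separate cultures. The promoter that drives C/EBPα and the number of clones behind each line are not given in the sources used here.

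The arrays measure RNA of a whole culture, so fewer cells of a type and less RNA per cell cannot be told apart. On 8 arrays, between 47.4% and 55.6% of the probe spots were well above background, and duplicates correlated across all genes with r of 0.992 to 0.994. The probe that stands for Tet2 did not read less RNA in the line labelled knockdown by the test (log2 difference to control -0.11 ± 0.10 at 0 h, adjusted p = 0.533, and 0.01 ± 0.10 at 24 h, adjusted p = 0.982). This probe cannot show whether Tet2 was knocked down, and its protein was not measured. Comparisons of the lines below are therefore comparisons of labels. Of the pre-B cell markers, 12 of 12 fell in the control induction and 9 of 12 in the other line, and 10 and 9 of the 10 macrophage markers tested rose. All 7 markers of dividing cells fell in both, with median log2 changes of -4.71 and -5.04. A further macrophage marker, Adgre1, was well above background on 3 arrays and was not tested. Of the T cell markers, Cd3g and Cd8a were well above background on 0 arrays and Cd3d on 1, while Cd3e, Cd4 and Lck were so on all 8; of the erythroid markers, Alas2 was so on 0, Klf1 on 1 and Hba-a1 on 4.

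The 26S proteasome consists of a 20S barrel and a 19S cap. The barrel stacks outer rings of alpha subunits, which gate the entrance, on inner rings of beta subunits, of which Psmb5, Psmb6 and Psmb7 carry the protease sites. In the cap, a ring of Psmc ATPases unfolds substrates, and the non-ATPase subunits bind ubiquitin, remove it or form the scaffold. Dedicated chaperones that do not stay in the finished particle (Psmg1 to Psmg4 for the 20S, Psmd5, Psmd9 and Psmd10 for the ATPase ring) assist assembly, and the activators Psme1 to Psme4 open the barrel in place of the 19S cap. In lymphoid and myeloid cells, the inducible subunits can replace the 3 constitutive catalytic ones to form the immunoproteasome, which favours peptides for antigen presentation.

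The constitutive catalytic subunit Psmb5 and its inducible counterpart Psmb8 are the pair whose probes share the most identical bases among 1817 pairs of probes of different genes, so they are shown here with their shared bases in capitals.
Psmb5 probe, chr14:55233161-55233220 (mm9, minus strand): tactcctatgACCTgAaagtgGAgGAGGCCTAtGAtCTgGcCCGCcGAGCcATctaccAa
Psmb8 probe, chr17:34337771-34337830 (mm9, plus strand): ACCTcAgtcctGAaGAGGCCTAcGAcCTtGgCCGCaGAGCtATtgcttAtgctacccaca
In the best ungapped alignment, 31 of 50 overlapping bases (62.0%) were identical, and the longest identical run was 8 bases. By number of identical bases the next pair, the ATPase gene Psmc2 and the chaperone gene Psmd5, shared 29 of 53 (54.7%). Whether such probes take up each other's RNA was not tested. Another Psmb5 probe is the one that stands for the gene below, because it is the brighter, and the probe printed here changed in the control induction by 0.32 ± 0.09 beside 0.33 ± 0.10.

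Levels are log2 values of the array signal over that array's 75th percentile, differences are on the same log2 scale, and ± is the standard error of the fit unless SD is stated. A gene "rose" or "fell" where limma's adjusted p over all genes was under 0.05. Values from different probes are not comparable as levels, so members are compared only by how they changed.

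The control induction asks what 24 h of induction did to these genes in cells with the control shRNA. The 31 members that encode subunits of the 26S particle, called the 26S subunits here, moved little, from -0.41 to 0.42. The largest changes lay outside it: the assembly chaperone genes Psmg1 and Psmg2 fell to 48.8% and 38.4% of their 0 h level, and the activator genes Psme3 and Psme2 rose 1.65-fold and 1.39-fold. Of the 44 members, 11 rose and 7 fell, while 30.7% of all genes rose and 31.1% fell, so the share that changed was below that of all genes (61.8%). At least 2-fold changes were rarer still: 0 members rose and 3 fell (Psmg1, Psmg2 and Psmc3ip), against 14.1% of all genes that rose and 13.1% that fell by that much. Under median scaling 1 member rose and 3 fell, where 19.6% of all genes rose and 25.7% fell. The members' median change was 0.06, that of the 26S subunits 0.08 and that of all genes 0.00.

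The induction of the line labelled Tet2 knockdown asks the same of that line. The same pair of chaperone genes fell furthest, to 47.1% (Psmg1) and 36.3% (Psmg2), and the activators Psme2 and Psme3 had the largest rises on this scale. Here 10 members rose and 15 fell, against 36.2% and 32% of all genes (68.2% in either direction). Again 0 rose and 3 fell by at least 2-fold, the same 3 genes, where 16.7% of all genes rose and 15.4% fell by that much. The members' median was -0.11 and that of the 26S subunits -0.10, while that of all genes was 0.14. Of all genes that passed, 53.1% rose, and 38.9% did under median scaling, which moved the median of all genes to -0.11. Under that scaling 0 members rose and 11 fell, where 20.4% of all genes rose and 32% fell. Side by side, 7 members fell in both inductions and 8 rose in both, 3 rose in the control line only by the test and 2 in the other line only, 8 fell only in the line labelled knockdown, and 16 passed in neither. The share of all genes in each of these classes was not counted, so these numbers only describe the members.

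**Figure D1:**
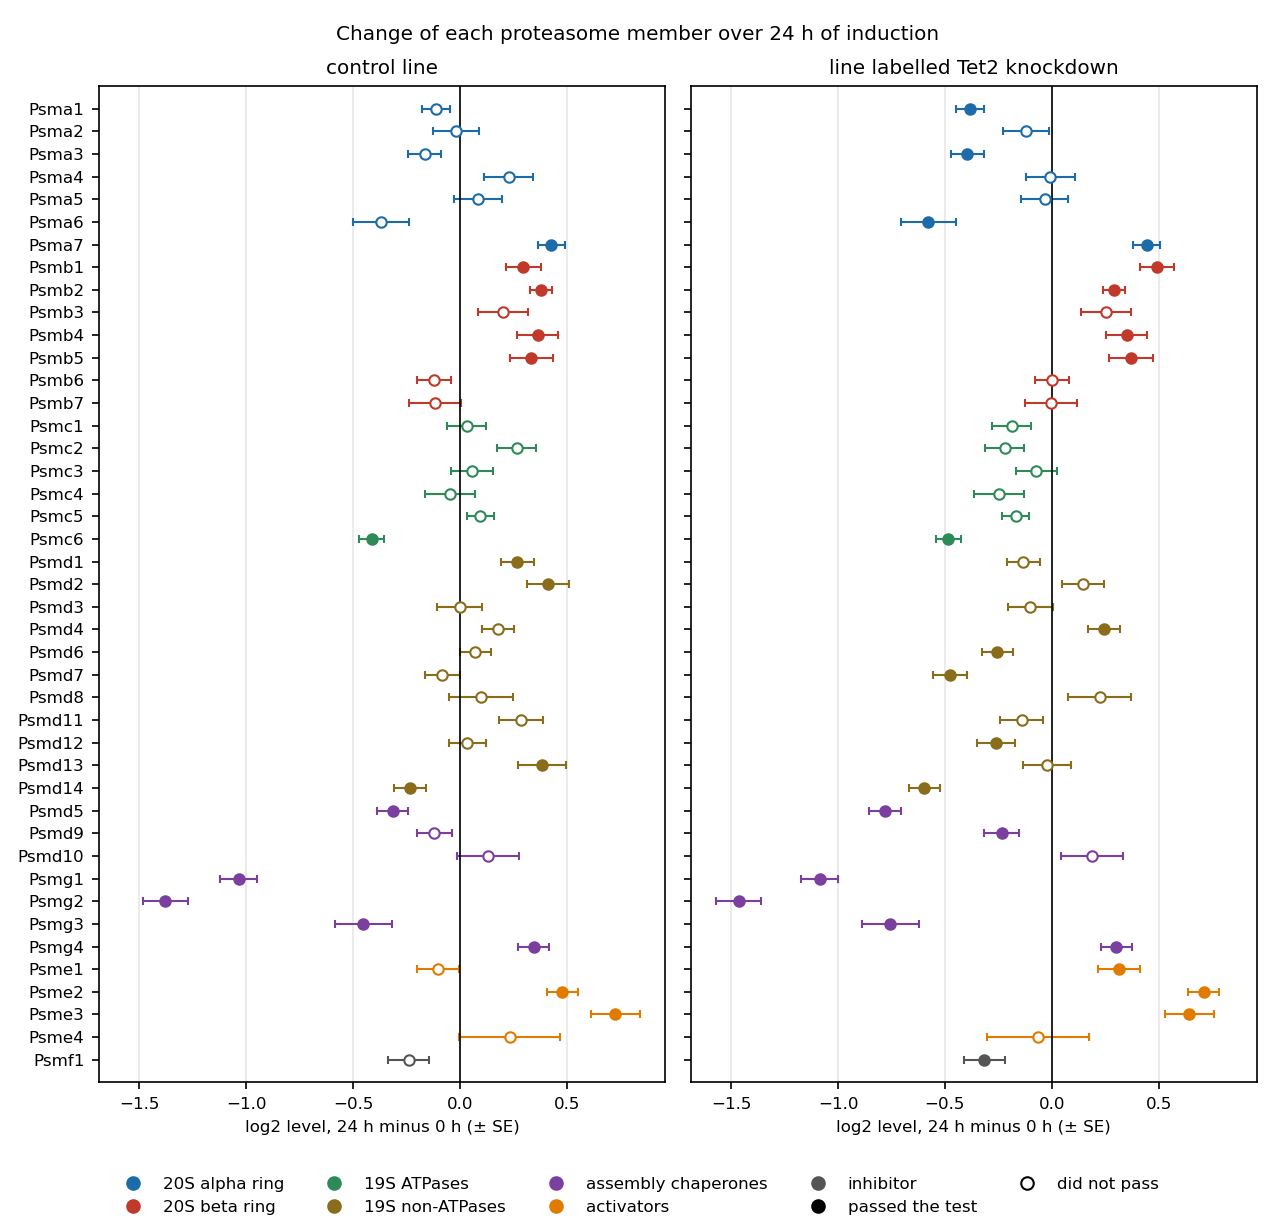
Log2 level at 24 h minus 0 h (± SE of the fit, 2 arrays per group) for 43 tested members by role, in the control line (left) and the line labelled Tet2 knockdown (right); filled points passed the test, and Psmc3ip is off scale and not drawn. The 26S subunits lie between -0.60 and 0.49 in both panels, Psmg1 and Psmg2 lie beyond -1, and Psmb3, Psmb4, Psmb5 and Psmb6 of the right panel fall below 0 under quantile normalization and in the deposited table.

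Psmg1 and Psmg2 form a heterodimer that starts the assembly of the alpha ring. Psmg2 stood at 2.70 and 2.75 on the control arrays at 0 h and at 1.30 and 1.39 at 24 h. In the line labelled knockdown it stood at 2.78 and 2.95 at 0 h and at 1.28 and 1.52 at 24 h. In both lines, the 0 h and 24 h arrays were far apart beside the gap between duplicates. The changes were -1.38 ± 0.11 (adjusted p = 0.000118) and -1.46 ± 0.11 (adjusted p = 8e-05).

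Psmg1 stood at 4.74 and 4.55 on the control arrays at 0 h and at 3.60 and 3.62 at 24 h. The arrays labelled knockdown stood at 4.73 and 4.62 at 0 h and at 3.55 and 3.63 at 24 h. The lines overlapped at each time, and no 24 h array reached a 0 h array. The changes were -1.04 ± 0.09 (adjusted p = 0.000177) and -1.09 ± 0.09 (adjusted p = 0.000127). A dimmer Psmg1 probe at chr16:96201644-96201703 (mm9, minus strand) fell as well, by -0.95 ± 0.06 and -1.28 ± 0.06; its sequence is shown because this fall was read by 2 separate probe sequences.
Psmg1 dimmer probe: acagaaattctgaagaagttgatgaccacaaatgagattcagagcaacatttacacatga

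The other chaperone pair, Psmg3 with Psmg4, did not move together. Psmg3 fell in both lines (-0.45 ± 0.13, adjusted p = 0.0283, and -0.76 ± 0.13, adjusted p = 0.00356). Its arrays stood at 3.34 and 3.25 before and 2.96 and 2.72 after induction in control cells, and at 3.82 and 3.52 before and 2.96 and 2.87 after in the line labelled knockdown. Psmg4 rose in both, by 0.34 ± 0.07 (adjusted p = 0.00823) and 0.30 ± 0.07 (adjusted p = 0.0127). The control call of Psmg3 was lost without either control array at 0 h or the slide 2 control array at 24 h (change -0.58 to -0.33), and the call of Psmg4 in the other line without its slide 1 array at 0 h or its slide 2 array at 24 h (0.23 to 0.38).

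Among the chaperones of the ATPase ring, Psmd5 fell in both lines. It stood at 1.66 and 1.66 on the control arrays at 0 h and at 1.35 and 1.34 at 24 h, and at 1.99 and 2.05 and then 1.33 and 1.15 in the line labelled knockdown. The arrays labelled knockdown lay above the control arrays before induction and below them after it, where the difference did not pass (-0.10, adjusted p = 0.412). The changes were -0.32 ± 0.07 (adjusted p = 0.0122, lost without any of the 4 control arrays, -0.32 to -0.31) and -0.78 ± 0.07 (adjusted p = 0.000249). Psmd9 fell in the line labelled knockdown (-0.23 ± 0.08, adjusted p = 0.0473, passed under 2 of the 5 scalings, lost without 7 of the 8 arrays, with changes from -0.31 to -0.16), and Psmd10 passed in neither. Over the 7 chaperones, 1 rose and 4 fell in the control induction, where 31.1% of all genes fell, and 1 rose and 5 fell in the other, where 32% did. All 7 markers of dividing cells fell in the same samples: the log2 of their summed level was 7.25 to 7.32 in control cells and 7.53 to 7.56 in the other line at 0 h, and 2.47 to 2.56 and 2.39 to 2.44 at 24 h. Their part in these changes was not tested.

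Of the 4 activators, 2 rose in the control induction and 3 in the other, where 30.7% and 36.2% of all genes rose, and 0 fell. Psme3, whose protein caps the 20S in the nucleus, stood at 1.12 and 1.21 on the control arrays at 0 h and at 1.75 and 2.03 at 24 h, and at 1.12 and 1.16 and then 1.70 and 1.87 in the line labelled knockdown. It rose by 0.72 ± 0.11 (adjusted p = 0.00246) and 0.64 ± 0.11 (adjusted p = 0.00373). All 4 arrays at 24 h lay above all 4 at 0 h.

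Psme1 and Psme2 encode partners in the interferon-inducible PA28 cap. Psme2 stood at 5.99 and 5.97 on the control arrays at 0 h and at 6.43 and 6.49 at 24 h, and at 6.19 and 6.03 and then 6.82 and 6.82 in the line labelled knockdown. Its rises were 0.48 ± 0.07 (adjusted p = 0.00205) and 0.71 ± 0.07 (adjusted p = 0.000335), the second being 0.31 in the authors' deposited table. Psme1 stood at 4.93 and 4.78 on the control arrays at 0 h and at 4.84 and 4.66 at 24 h. In the line labelled knockdown it stood at 4.91 and 4.89 at 0 h and at 5.28 and 5.14 at 24 h. The control arrays of Psme1 overlapped between the times (-0.10 ± 0.10, adjusted p = 0.407), and the gene rose only by the test in the line labelled knockdown (0.31 ± 0.10, adjusted p = 0.0315; 0.06 under median scaling and past the test under 2 of the 5 scalings; lost without either of its 0 h arrays or its slide 1 array at 24 h, 0.24 to 0.38). Psme1 is printed as 10 spots on each array, whose SD within an array was 0.03 to 0.08. Psme4, whose protein is a single-chain cap, did not pass in either line (0.23 ± 0.24 and -0.06 ± 0.24). The inhibitor gene Psmf1, whose protein blocks the 20S ends, fell in the line labelled knockdown (-0.32 ± 0.10, adjusted p = 0.0293; passed under 3 of the 5 scalings; lost without either 0 h array or the slide 2 array at 24 h of that line, -0.43 to -0.20) and stood at -0.24 ± 0.10 in the control line (adjusted p = 0.0772).

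**Figure D2:**
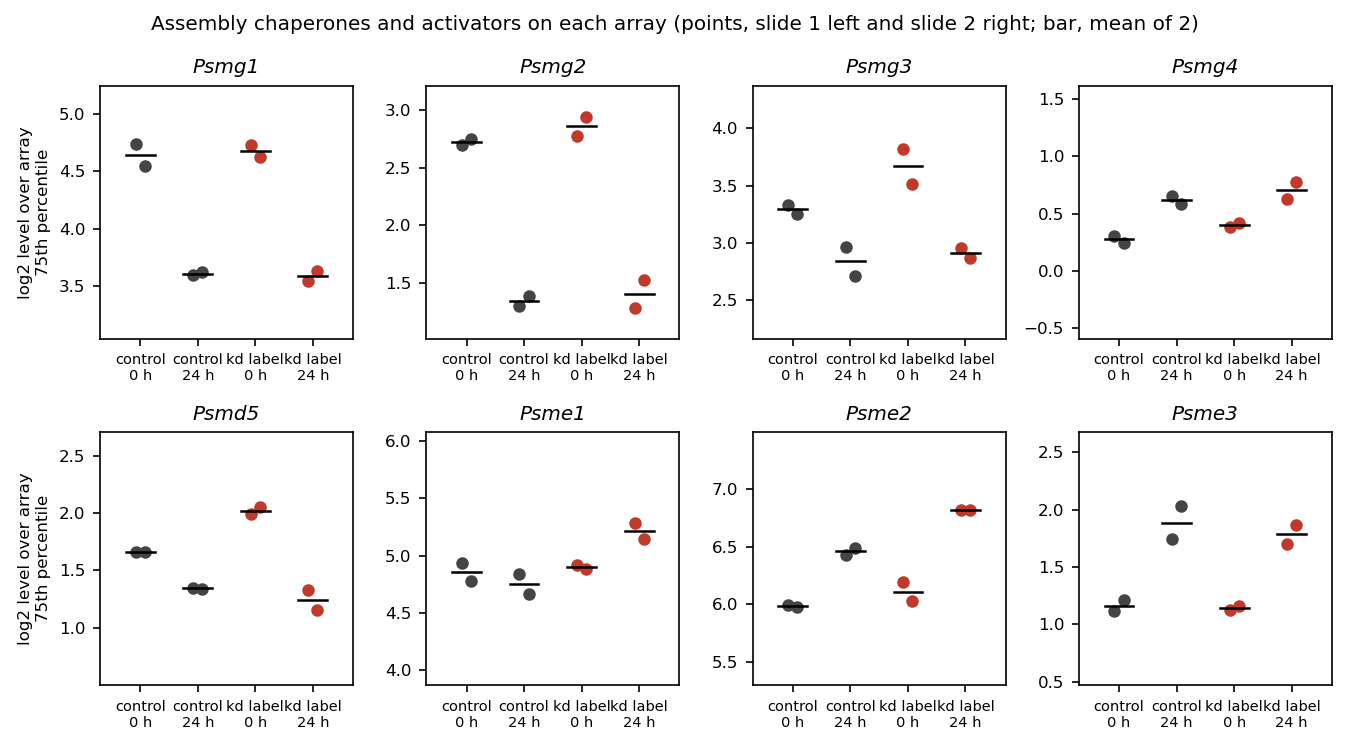
Log2 level over the array's 75th percentile of 5 assembly chaperones and 3 activators on each of the 8 arrays (points; slide 1 left, slide 2 right; bar, mean of 2), with all panels spanning the same range; "kd label" marks the line labelled Tet2 knockdown. Psmg1 and Psmg2 drop by more than 1 between 0 h and 24 h in both lines, Psme3 and Psme2 rise, and Psme1 is higher at 24 h in the line labelled knockdown only.

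In the 20S beta ring, 4 of 7 genes rose and 0 fell in each induction, with medians of 0.30 and 0.29, where 30.7% and 36.2% of all genes rose. With the slide as a block Psmb3 passed as well (0.20, adjusted p = 0.025, and 0.25, adjusted p = 0.0104), so 5 of 7 rose in each, where 34.6% and 42.4% of all genes did. But in the line labelled knockdown quantile normalization and the authors' deposited table put Psmb3, Psmb4, Psmb5 and Psmb6 below 0. Psmb5, the chymotrypsin-like site, stood at 7.09 and 7.07 on the control arrays at 0 h and at 7.50 and 7.33 at 24 h, and at 7.35 and 7.14 and then 7.67 and 7.56 in the line labelled knockdown. It changed by 0.33 ± 0.10 (adjusted p = 0.0323) and 0.37 ± 0.10 (adjusted p = 0.0203), and in the second line by -0.04 under quantile normalization and -0.05 in the authors' deposited table. The control call of Psmb5 was lost without either control array at 0 h or the slide 1 control array at 24 h (0.25 to 0.42), and the other call without the slide 2 array at 0 h or the slide 1 array at 24 h of its line (0.27 to 0.47).

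The other catalytic genes did not pass in either induction. Psmb6, the caspase-like site, stood at 6.49 and 6.42 before and 6.29 and 6.37 after induction in control cells, and at 6.55 and 6.54 before and 6.46 and 6.63 after in the line labelled knockdown. Its changes were -0.12 ± 0.08 (95% interval -0.32 to 0.07, adjusted p = 0.232) and 0.00 ± 0.08 (-0.20 to 0.20, adjusted p = 0.983). But the second was -0.38 (adjusted p = 0.00797) under quantile normalization and -0.41 (limma adjusted p = 0.0096) in the authors' deposited table. The first was -0.29 under quantile normalization and passed under 1 of the scalings. Psmb7, the trypsin-like site, stood at 4.17 and 3.96 before and 4.03 and 3.87 after in control cells, and at 4.24 and 4.05 and then 4.22 and 4.06. Its changes were -0.12 ± 0.12 (95% interval -0.42 to 0.18, adjusted p = 0.447) and -0.00 ± 0.12 (-0.31 to 0.30, adjusted p = 0.982). So on this scale the catalytic genes differed among themselves in whether they passed the test, and the difference between them was not tested.

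The structural beta genes Psmb1 and Psmb2 kept a value above 0 in both lines under all 5 ways of scaling the arrays. Of these, Psmb2 passed under 4 in each line, and Psmb1 under 4 in the line labelled knockdown and 2 in the control line, where its lowest value was 0.14. Psmb2 changed by 0.38 ± 0.05 (adjusted p = 0.00134) and 0.29 ± 0.05 (adjusted p = 0.00378). Psmb1 stood at 5.02 and 4.92 at 0 h and at 5.49 and 5.44 at 24 h in the line labelled knockdown, where it rose by 0.49 ± 0.08 (adjusted p = 0.00263), and it rose by 0.30 ± 0.08 (adjusted p = 0.0218) in the control line. Psmb4 rose by 0.36 ± 0.10 and 0.35 ± 0.10, but passed under 2 and 1 of the 5 scalings, and stood at 0.18 in the control line and -0.07 in the other under quantile normalization. The control calls of Psmb1 and Psmb4 were both lost without the slide 2 control array at 0 h or the slide 1 control array at 24 h (0.23 to 0.36 and 0.28 to 0.45), and that of Psmb4 in the other line without 3 of its 4 arrays (0.26 to 0.44).

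**Figure D3:**
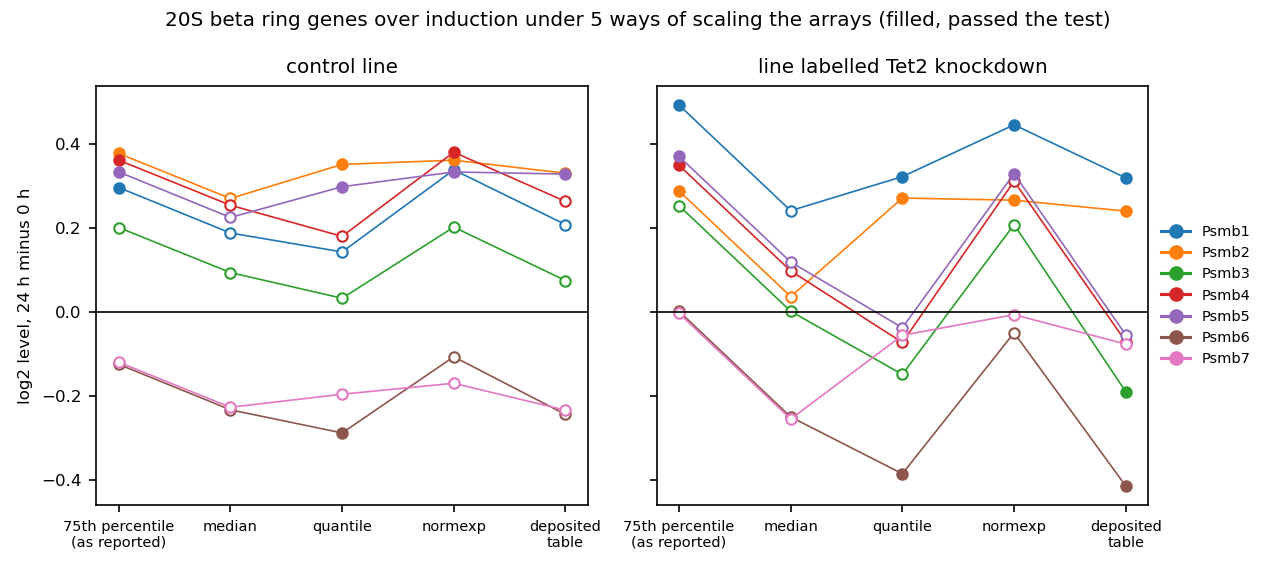
Log2 level at 24 h minus 0 h of the 7 beta ring genes under 5 ways of scaling the same arrays, in the control line (left) and the line labelled Tet2 knockdown (right); filled points passed the test and lines only join one gene's values. In the right panel Psmb1 and Psmb2 stay above 0 throughout, while Psmb3, Psmb4 and Psmb5 lie below 0 under quantile normalization and in the deposited table, where Psmb6 lies at -0.38 and -0.41.

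The alpha ring split. Psma7 rose in both lines (0.43 ± 0.06, adjusted p = 0.00195, and 0.44 ± 0.06, adjusted p = 0.00148). It stood at 5.82 and 5.75 before and 6.23 and 6.18 after induction in control cells, and at 6.05 ± 0.07 (SD, n = 2) and then 6.49 ± 0.02 in the line labelled knockdown. In the second line its change was 0.10 under quantile normalization and 0.07 in the authors' deposited table, and neither passed. Psma6 stood at 4.98 and 4.86 and then 4.63 and 4.47 in control cells, and at 5.25 and 5.01 and then 4.67 and 4.43 in the other line. Psma6 fell by -0.58 ± 0.13 in the second of these lines (adjusted p = 0.00935), and its control value of -0.37 ± 0.13 had an adjusted p of 0.0504. With the slide as a block that control value passed (adjusted p = 0.0032). Psma3 (-0.40 ± 0.08, adjusted p = 0.00506) and Psma1 (-0.38 ± 0.07, adjusted p = 0.00314) also fell in the line labelled knockdown. In all, 1 alpha gene rose and 0 fell in the control induction, where 30.7% of all genes rose and 31.1% fell. In the other induction 1 rose and 3 fell, where 36.2% of all genes rose and 32% fell. With the slide as a block the control counts were 2 (with Psma4) and 2 (Psma3 and Psma6), where 34.6% of all genes rose and 34.5% fell.

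In the 19S cap, the ATPase gene Psmc6 fell in both lines, by -0.41 ± 0.06 (adjusted p = 0.00168) and -0.48 ± 0.06 (adjusted p = 0.000782). It stood at 2.81 and 2.71 and then 2.33 and 2.35 in control cells, and at 3.02 and 3.06 and then 2.57 and 2.55 in the line labelled knockdown. No other of the 6 ATPase genes passed in either induction without the block. Psmc2 rose in control cells with the slide as a block (0.26, adjusted p = 0.0195), where 34.6% of all genes rose. In the line labelled knockdown all 6 lay below 0 (-0.48 to -0.07), and with the block 5 of them fell (Psmc1, Psmc2, Psmc4, Psmc5 and Psmc6), where 34.4% of all genes fell and 42.4% rose.

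Among the 11 non-ATPase genes, 3 rose and 1 fell in the control line, where 30.7% of all genes rose and 31.1% fell, and 1 rose and 4 fell in the other, where 36.2% rose and 32% fell. The slide block added Psmd4 (0.18, adjusted p = 0.0309) to the genes that rose in the control line, making 4 where 34.6% of all genes rose. Psmd14, the enzyme that cuts ubiquitin chains off substrates, stood at 2.70 and 2.59 before and 2.41 and 2.41 after induction in control cells, and at 2.74 and 2.69 and then 2.19 and 2.05 in the line labelled knockdown. It fell by -0.24 ± 0.07 (adjusted p = 0.035) and -0.60 ± 0.07 (adjusted p = 0.00078). The control call was lost without 5 of the 8 arrays (-0.29 to -0.18). Its partner Psmd7 fell by -0.48 ± 0.08 in the line labelled knockdown (limma, adjusted p = 0.00295) and stood at -0.08 ± 0.08 in the control line. Psmd2, a scaffold that docks ubiquitin carriers, stood at 4.64 and 4.41 and then 5.01 and 4.86 in control cells, and at 4.64 and 4.59 and then 4.78 and 4.75 in the other line. It rose in control cells only by the test (0.41 ± 0.10, adjusted p = 0.0132; 0.15 ± 0.10, adjusted p = 0.23, in the other line; 0.23 in the authors' deposited table), and that call was lost without the slide 2 control array at 0 h or the slide 1 control array at 24 h (0.30 to 0.53). Psmd13 (0.38 ± 0.11) and the scaffold gene Psmd1 (0.27 ± 0.08) also rose in control cells, and their calls were lost without 4 and 3 of the 4 control arrays. Psmd1 passed under 1 of the 5 scalings and stood at 0.15 under quantile normalization. In the line labelled knockdown, the ubiquitin receptor gene Psmd4 rose by 0.24 ± 0.07 (adjusted p = 0.0292, lost without any of that line's 4 arrays), but stood at -0.01 to -0.05 under 3 of the other 4 scalings, and Psmd6 and Psmd12 fell by -0.25 ± 0.07 and -0.26 ± 0.09, calls that were lost without any of 4 arrays (-0.28 to -0.23) and any of 7 arrays (-0.35 to -0.17).

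Psmc3ip, the member by name only, had the largest change of all. It stood at 0.85 and 0.98 and then -3.65 and -4.27 in control cells, and at 1.12 and 1.15 and then -4.44 and -4.00 in the line labelled knockdown. It fell to 3.41% and 2.44% of its 0 h level (-4.88 ± 0.24, adjusted p = 2.1e-05, and -5.36 ± 0.24, adjusted p = 1.3e-05), beside the 7 dividing-cell markers, whose part was not tested. The size of these falls is uncertain, because the 24 h levels lay near the lowest ones well above background on those arrays (-5.62 to -4.43). The control fall was -3.86 in the authors' deposited table, and the other was -4.08 with normexp.

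The comparison of the lines at 0 h asks what the labels separate before induction. Members were slightly higher in the line labelled knockdown: 41 of 44 lay above 0, with a median of 0.16 against 0.00 for all genes, and 0.21 for the 26S subunits. By the test 6 members were higher and 0 lower, while 5.92% of all genes were higher and 7.57% lower. On 30 members, both arrays labelled knockdown lay above both control arrays, and on 0 below; 57.1% of all genes had groups apart in one direction or the other. Within slide 1 the members' median was 0.18 and within slide 2 it was 0.17. With the slide as a block 15 members were higher and 0 lower, against 11.1% and 12.8% of all genes. Of all genes that passed, 43.9% were higher, and 24.2% under median scaling. The 7 dividing-cell markers had a median of 0.21 at 0 h, with 6 above 0 and 1 past the test, and their part in the shift was not tested.

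The 6 higher genes were the 19S genes Psmc2, Psmc5, Psmc6, Psmd1 and Psmd7 and the 19S chaperone gene Psmd5. Psmc2, an ATPase, stood at 5.05 and 5.04 on the control arrays and at 5.68 and 5.48 on those labelled knockdown, a difference of 0.53 ± 0.09 (adjusted p = 0.0218). Its second probe differed by 0.37 (adjusted p = 0.0219). Psmd7 stood at 3.50 and 3.34 against 3.85 and 3.78 (0.40 ± 0.08, adjusted p = 0.0332). Psmd1 stood at 4.48 and 4.43 against 4.82 and 4.82 (0.36 ± 0.08, adjusted p = 0.0366), and Psmd5 at 1.66 and 1.66 against 1.99 and 2.05 (0.36 ± 0.07, adjusted p = 0.0341). In these genes the groups did not overlap. Psmc5 and Psmc6 differed by 0.36 ± 0.06 (adjusted p = 0.0226) and 0.29 ± 0.06 (adjusted p = 0.0362).

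By part of the particle, 3 of 6 ATPase, 2 of 11 non-ATPase and 0 of 14 ring genes of the 20S were higher at 0 h, against 5.92% of all genes, and with the slide as a block 6, 5 and 2 were, against 11.1%. Psmb5 differed by 0.16 ± 0.10 (adjusted p = 0.347), Psmb6 by 0.09 ± 0.08 (adjusted p = 0.51) and Psmb7 by 0.08 ± 0.12 (adjusted p = 0.727). Whether the cap and the barrel differ was not tested. All 6 calls were lost without either control 0 h array; those of Psmc6, Psmd1 and Psmd7 were lost without any 1 of the 8 arrays, Psmc5 and Psmd5 without 6 of them, and Psmc2 without 3. The values without 1 array stayed between 0.24 and 0.63. Under median scaling 0 members passed, with 42 of 44 above 0, while 0.347% of all genes were higher and 1.08% lower.

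At 24 h other members passed the test, and the median was back near that of all genes (0.02 against 0.04). By the test 3 members were higher and 0 lower, while 7.4% of all genes were higher and 6.44% lower. They were the PA28 genes Psme1 (0.46 ± 0.10, adjusted p = 0.036) and Psme2 (0.36 ± 0.07, adjusted p = 0.032) and the alpha gene Psma7 (0.28 ± 0.06, adjusted p = 0.0432). Psme1 stood at 4.84 and 4.66 on the control arrays and 5.28 and 5.14 on the arrays labelled knockdown, and Psme2 at 6.43 and 6.49 against 6.82 and 6.82. The groups did not overlap in these 3. Psma7 had differed by nearly as much at 0 h without passing (0.26, limma adjusted p = 0.0521). With the slide as a block Psma7, Psmc6 and Psmd4 were higher at both times. The Psma7 and Psme1 calls were lost without any 1 of the 8 arrays (0.25 to 0.31 and 0.37 to 0.55), and that of Psme2 without 6 (0.33 to 0.39). Psme2 and Psma7 passed under 1 of the 5 scalings, and stood at 0.19 and 0.12 in the authors' deposited table.

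Psmb5, Psmb6 and Psmb7 differed at 24 h by 0.20 ± 0.10 (adjusted p = 0.247), 0.22 ± 0.08 (adjusted p = 0.134) and 0.19 ± 0.12 (adjusted p = 0.344), so none passed without the block, and Psmb5 stood at -0.07 in the authors' deposited table. With the slide as a block 7 members were higher, against 15.9% of all genes, among them Psmb7 (adjusted p = 0.0377), and Psmd14 was lower (-0.29 ± 0.05, adjusted p = 0.0253), as 10.5% of all genes were. The groups were apart on 15 members with the line labelled knockdown higher and on 7 with it lower, against 59.6% of all genes.

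**Figure D4:**
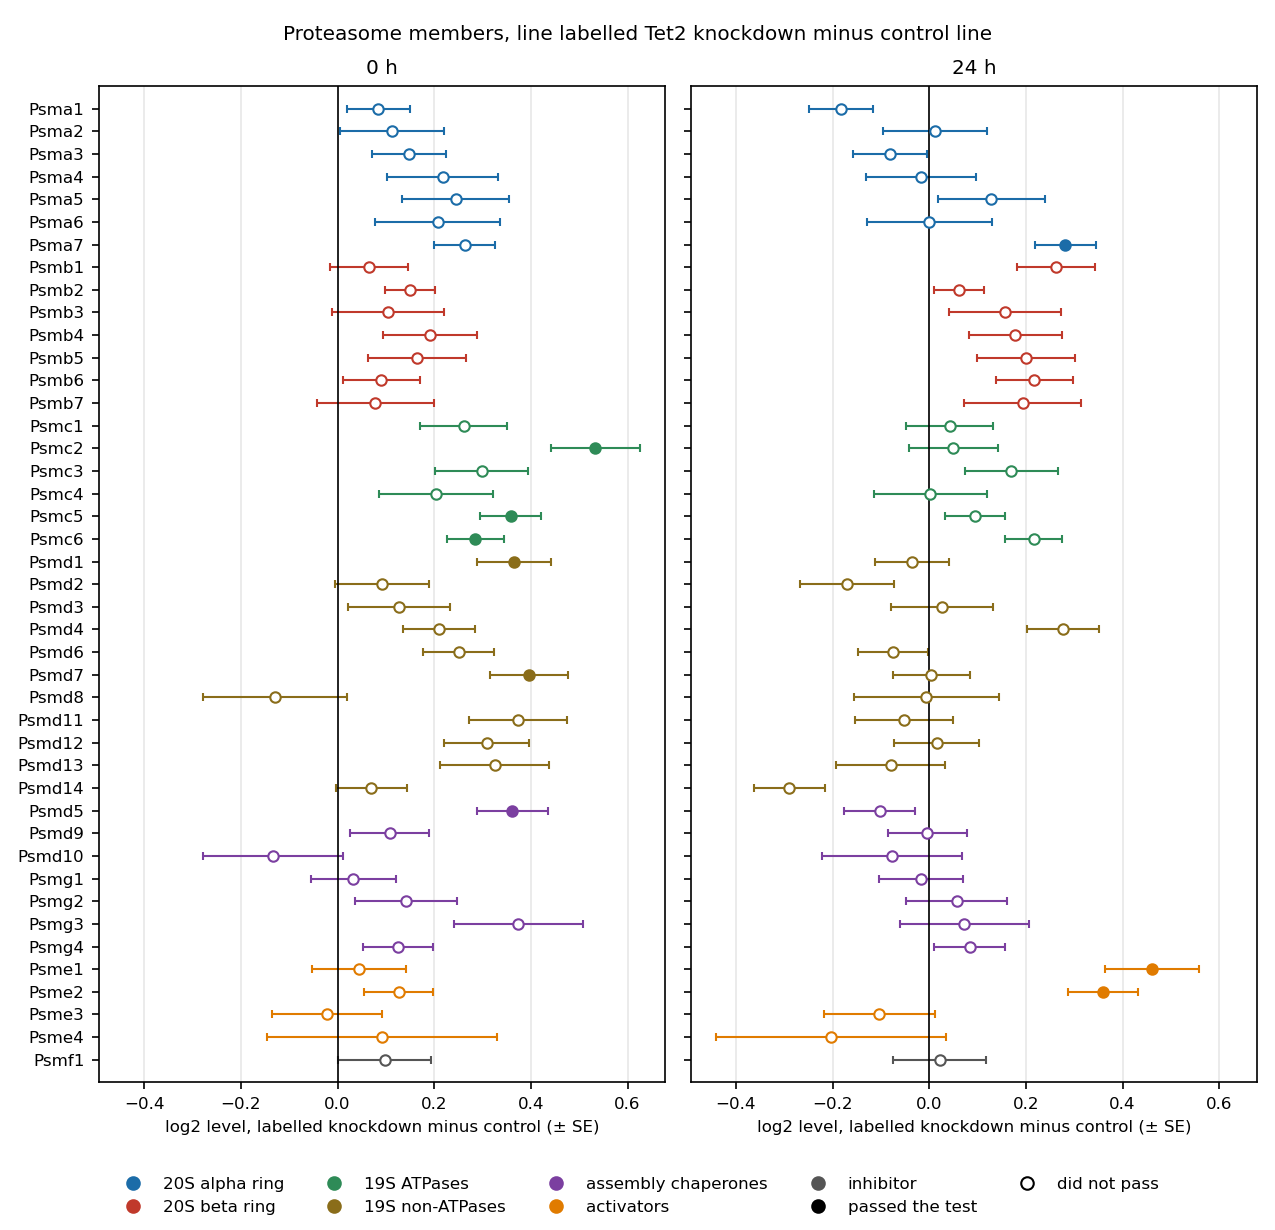
Log2 level in the line labelled Tet2 knockdown minus the control line (± SE of the fit, 2 arrays per group) at 0 h (left) and 24 h (right), for 43 tested members by role; filled points passed the test, and Psmc3ip, no proteasome gene, is not drawn. At 0 h nearly all points lie above 0 and 6 passed, mostly 19S genes, and at 24 h the points scatter around 0 with Psme1 highest at 0.46.

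The difference between the inductions is tested as an interaction. Psmd5 was the only member that passed: it fell further in the line labelled knockdown, by -0.46 ± 0.10 (adjusted p = 0.0392), while 7.05% of all genes had a lower and 9.2% a higher induction there. The call of Psmd5 was lost without any 1 of 7 of the 8 arrays (-0.55 to -0.38), and it passed under 2 of the 5 scalings. In 33 of 44 members the value lay below 0, with a median of -0.11 (26S subunits -0.20) against 0.05 for all genes. This value holds the 0 h difference with its sign turned, and both use the same 0 h arrays. With the slide as a block 6 members passed below 0 (Psmc2, Psmd1, Psmd6, Psmd7, Psmd14 and Psmd5) and Psme1 passed above 0 (0.42 ± 0.08, adjusted p = 0.0247), where 11.8% of all genes were lower and 17.9% higher. Psmb5, Psmb6 and Psmb7 stood at 0.04 ± 0.14 (95% interval -0.32 to 0.40), 0.13 ± 0.11 (-0.15 to 0.41) and 0.12 ± 0.17 (-0.31 to 0.54). All 3 lay below 0 under another scaling, at their lowest at -0.38, -0.17 and -0.03, and Psmb5 passed under quantile normalization (-0.335, adjusted p = 0.0389).

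The inducible subunits, which are not members, are the nearest comparison. In control cells Psmb8 and Psmb9 did not pass over induction (0.08 ± 0.07 and 0.07 ± 0.07) and Psmb10 rose by 0.38 ± 0.09. In the line labelled knockdown all 3 rose, by 0.45 ± 0.07, 0.78 ± 0.07 and 0.74 ± 0.09. At 24 h the 3 were higher there than in control cells (0.37 ± 0.07, 0.76 ± 0.07 and 0.63 ± 0.09; adjusted p = 0.0295, 0.0048 and 0.0124). Of the 3, the inductions differed by the test for Psmb9 (0.71 ± 0.10, adjusted p = 0.0145). Under median scaling none of these rises or differences passed.

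Of 29 listed genes around the proteasome (the inducible subunits, ubiquitin genes, shuttles, accessory factors and the NRF1 pathway), 28 were tested. The 25 of them other than the inducible subunits gave 9 that rose and 8 that fell in control cells, and 7 and 11 in the line labelled knockdown, against the shares of all genes above. The deubiquitinating enzymes of the cap fell: Uchl5 by -1.18 ± 0.06 and -1.67 ± 0.06, and Usp14 by -0.51 ± 0.06 and -0.69 ± 0.06. Txnl1, a thioredoxin-like protein of the cap, fell by -0.95 ± 0.08 and -1.40 ± 0.08. NRF1, encoded by Nfe2l1, is the transcription factor that raises proteasome genes when degradation falls short, and Ddi2 is the protease that activates it. Nfe2l1 rose by 0.47 ± 0.10 and 0.81 ± 0.10, and Ddi2 by 1.31 ± 0.10 and 0.93 ± 0.10. Ngly1, also on the list, rose in control cells (0.50 ± 0.13) but did not pass in the line labelled knockdown (0.19 ± 0.13, adjusted p = 0.242). At 24 h Ngly1 was lower in that line than in control cells (-0.62 ± 0.13, adjusted p = 0.0355). Vcp, a segregase that feeds substrates to the cap, rose by 0.54 ± 0.05 and 0.35 ± 0.05. The rises of Nfe2l1 and Vcp did not pass under median scaling, and the second of Vcp also not under quantile normalization or in the authors' deposited table.

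Because the NRF1 pathway acts through antioxidant response elements, the promoters of members were searched for the core TGACNNNGC and for the NF-Y box CCAAT, on both strands, in the 250 bases before and 50 after the start (RefSeq, GRCm38.p6; 38 of 46 members had a sequence). TGACNNNGC was present in 6 of 38 members (15.8%) and in 14% of 27025 genes, and CCAAT in 14 of 38 (36.8%) and in 41.1%. The shares of members and of all genes were thus close for both motifs. By role, TGACNNNGC was found in 2 of the 4 beta ring genes with a sequence and in 0 of 7 alpha ring genes, and CCAAT in 1 and 5. The TGACNNNGC matches in catalytic subunit genes are shown and, for each alpha gene with CCAAT, the match before the start on the gene's own strand, with the match in capitals.
Psmb5, chr14:54618014-54618062 (minus strand), TGACNNNGC from 47 bases before the start: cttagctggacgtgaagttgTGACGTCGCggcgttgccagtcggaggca
Psmb6, chr11:70525328-70525356 (plus strand), TGACNNNGC from 9 bases before the start: cagaggcggactaaagagagTGACGGAGC
Psma6, chr12:55384173-55384217 (plus strand), CCAAT from 29 bases before the start: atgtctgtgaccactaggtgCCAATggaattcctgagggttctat
Psma3, chr12:70974464-70974508 (plus strand), CCAAT from 139 bases before the start: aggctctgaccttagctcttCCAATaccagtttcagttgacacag
Psma1, chr7:114276190-114276234 (minus strand), CCAAT from 98 bases before the start: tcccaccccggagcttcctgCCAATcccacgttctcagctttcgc
Psma7, chr2:180042636-180042680 (minus strand), CCAAT from 196 bases before the start: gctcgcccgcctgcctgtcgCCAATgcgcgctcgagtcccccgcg
Psma2, chr13:14613168-14613212 (plus strand), CCAAT from 54 bases before the start: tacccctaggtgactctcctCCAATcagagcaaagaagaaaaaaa
Psmb5 and Psmb6 both hold the core, and over induction of control cells Psmb5 rose by 0.33 while Psmb6 stood at -0.12. CCAAT was in Psma6, Psma3 and Psma1, which fell in the line labelled knockdown, in Psma7, which rose in both lines, and in Psma2, which passed in neither. A match of letters is a description and shows no binding.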

How the data were processed

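RNA from 8 samples was measured on 1-colour Agilent mouse arrays (total RNA, labelled with Cy3 from an oligo-dT primer, per the labels' protocols). Per the file headers, design 026655, annotated on build mm9, was extracted with Feature Extraction 10.7.3.1. The authors deposited scanner output with a processed intensity per spot, made with spatial and multiplicative detrending switched on, per the file headers. They also deposited a table of log2 values with limma named in the submitters' processing notes; a recomputation with normexp and quantile normalization correlated with it at 0.999998 at the lowest. Every column of the deposited table had a median of 6.84, -0.006 from the recomputed one, so scale and centring are those of quantile normalization.

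From the intensities, log2 of the processed signal minus log2 of the array's 75th percentile was computed, without 155 to 219 outlier spots per array. Spots of a probe were averaged, a probe was kept where both arrays of some group had it well above background, and the brightest kept probe stood for its gene. A limma 3.58.1 fit in R 4.3.3 of 4 group means to all 8 arrays gave 5 contrasts, with 2-sided tests and Benjamini-Hochberg adjustment over 16159 genes. The number of arrays limits the precision (median standard error 0.10, and 0.142 for the interaction). The fit was also run on simulated data with few changed genes and independent noise on each array. That run does not cover broad changes or deviations shared within a slide.

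All replicate 1 arrays lay on one slide and all replicate 2 arrays on another; deviations from group means correlated between groups at 0.298 to 0.412, so the numbers pair the arrays by slide. Blocked values or counts stand beside the induction calls they add and the line comparisons whose counts they move.

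All members may be named; the 4 largest rises and falls past the test and Psmb5, Psmb6 and Psmb7 get full values. Members and lists were chosen with earlier results of these data known; a few listed non-member genes are not reported here and are left out of the list counts. Alternatives were other scalings, background correction, filters, probe rules, the block and leaving out each array.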

Additional observations from a re-analysis of the deposited data

Results flagged for a closer look

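The inductions of the 2 lines differed by limma's interaction test in 1 member, Psmd5 (-0.46 ± 0.10, adjusted p = 0.0392), whose level fell from a higher start in the line labelled knockdown. They also differed in 4 of the 28 listed genes around the proteasome, while 16.3% of all genes differed by the same test. The inducible subunit gene Psmb9 had a value of 0.71 (adjusted p = 0.0145). Of the cap's deubiquitinating enzyme Uchl5 the value was -0.49 (adjusted p = 0.0251), of the ubiquilin gene Ubqln4 -0.53 (adjusted p = 0.0137) and of the zinc finger gene Zfand2a, which was 0.69 higher in the line labelled knockdown at 0 h, -0.44 (adjusted p = 0.0404). Leaving out 1 array in turn lost the Psmd5 and Uchl5 calls in 7 of 8 fits, and those of Zfand2a, Ubqln4 and Psmb9 in 8, 5 and 4.

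In 2 members a dimmer probe passed the interaction test and the brightest did not. That of Psmg1 fell further in the line labelled knockdown (-0.33 ± 0.08, adjusted p = 0.0454), while the brighter one did not pass (-0.05 ± 0.12). Another probe listed under Psme2 rose by 2.36 ± 0.17 and 3.50 ± 0.17, a difference of 1.14 ± 0.24 (adjusted p = 0.0348), where the brightest probe gave 0.48 and 0.71. The size of these larger rises is uncertain. This dimmer probe's 0 h levels (-4.95 to -4.55) lay near the lowest ones well above background on those arrays (-5.84 to -5.17). Its coordinates in the file run from 56209736 to 56429032 on chromosome 14 (mm9), 219297 bases, while the brightest probe covers 60. In other comparisons, probes of Psmc1 (0 h), Psmd9 (control induction; -0.32, adjusted p = 0.0404, against -0.12, adjusted p = 0.253, for the brightest) and Psme2 (24 h) also differed in whether they passed.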

How the results depend on the processing

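Single-gene values that turned, among those that passed before or after the change of setting, were these. When the line labelled knockdown was induced, quantile normalization gave Psmb4 -0.072, Psmb5 -0.037, Psmb6 -0.384 and Psmd4 -0.016. The authors' deposited table gave Psmb3 -0.189, Psmb4 -0.070, Psmb5 -0.054, Psmb6 -0.413 and Psmd4 -0.054. Median scaling gave Psmd4 -0.008, and Uba1 had -0.023, -0.014 and -0.015 under median scaling, quantile normalization and in the table. Psmb5 had an interaction of -0.335 under quantile normalization, and Zfand5 a 0 h difference of -0.054 as the mean of its probes. Values that passed in neither setting turned too, such as the 24 h difference of Psmb5 and the interactions of Psmb6 and Psmb7. The causes were not tested.

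Counts of members moved as follows, and those of all genes moved too. Under median scaling 19.6% of all genes rose and 25.7% fell in control cells, and 20.4% and 32% in the other line. Without the filter on dim probes these shares were 13.5%, 12.9%, 17.8% and 14.1%. At 0 h, 0.347% of all genes were higher under median scaling, 0.19% without the filter, 2.33% with normexp and 6.29% under quantile normalization. At 24 h, 0.786% were higher under median scaling and 0.477% without the filter. The 11 that rose in control cells became 1 under median scaling, 7 in the table, 4 without a filter on dim probes, 0 at 2-fold and 6 to 12 without 1 array; the 7 that fell became 3, 11 under quantile normalization, 4 without the filter, 3 at 2-fold and 4 to 9 without 1 array. Of the other line's 10 rises, 0 passed under median scaling, 5 under quantile normalization, 5 in the table, 4 without the filter, 0 at 2-fold and 6 to 10 without 1 array, and its 15 falls became 23 under quantile normalization and 3 at 2-fold, and 11 to 13 without 1 array. At 0 h the 6 higher members became 0 under median scaling, 13 under quantile normalization, 2 with normexp, 0 without the filter, 15 with the replicate block, 0 at 2-fold and 0 to 2 without 1 array. At 24 h the 3 higher became 0 under median scaling, 1 each under quantile normalization, normexp and the table, 0 without the filter, 7 with the block, 0 at 2-fold and 0 to 1 without 1 array, and the 0 lower became 1 under quantile normalization, with a filter on all 8 arrays and with the block. For the difference of inductions the 0 higher became 1 with the block and at probe level, and the 1 lower became 0 under median scaling, normexp and no filter, 4 under quantile normalization, 2 in the table, 3 with the filter on all 8 arrays, 6 with the block, 2 at probe level, 0 at 2-fold and 0 to 1 without 1 array. The falls of Psmg1, Psmg2 and Psmc3ip passed in both lines under all 5 scalings and without any 1 array. A fit without 1 array leaves 1 group with a lone array, assumed to vary like the rest. The share of all genes with a lower induction in the line labelled knockdown was 0.681% under median scaling and 2.8% with normexp. It was 0.0853% without the filter and 7.35% under quantile normalization.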
